A study of Saccharomyces cerevisiae with 15 samples.

Results

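The FRE genes of the budding yeast Saccharomyces cerevisiae encode metalloreductases. They were chosen by systematic name: FRE1 (YLR214W), FRE2 (YKL220C), FRE3 (YOR381W), FRE4 (YNR060W), FRE5 (YOR384W), FRE6 (YLL051C), FRE7 (YOL152W) and FRE8 (YLR047C). They are 8 of the 6600 gene identifiers measured. RNA was sequenced from wild-type BY4741 cells, a haploid laboratory strain of mating type a. They grew in yeast nitrogen base (YNB) to which the phosphate ester β-glycerophosphate had been added. Cells received lanthanum (La), one of the light rare earth elements, at 50 µM (its EC10, the dose with 10 percent effect per the labels) or at 160 µM (its EC50). Other cells received ytterbium (Yb), one of the heavy ones, at 6 µM (EC10) or 8 µM (EC50). Exposure lasted 1 h, and control cells received no metal. There were 3 libraries in each of the 5 groups. Whether those 3 were separate cultures is not stated in the labels, and p-values therefore cover the spread between libraries only, which may be technical.

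Yeast takes up most iron and copper in reduced form. A FRE reductase, a membrane flavocytochrome with heme, passes electrons from NADPH to ferric iron, to iron held by siderophores (iron chelators made by microbes) or to cupric copper. The reduced metal is then imported by the Fet3-Ftr1 oxidase-permease pair or by the copper transporter Ctr1. When iron is short, the factors Aft1 and Aft2 raise transcription of most FRE genes and of the iron uptake genes, and when copper is short, Mac1 raises FRE1, FRE7 and the copper uptake genes. In RNA of whole cultures, a lower share of cells that use a gene and less of its RNA per cell cannot be told apart.

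The stretches below, read 5′ to 3′ on the strand of each gene from build R64, are shown because they hold words linked to promoter recognition by Aft1 and Mac1. Each word was searched only in the exact spelling given, so sites spelled otherwise are not marked or counted. Capitals mark exact matches to TGCACCC (the Aft1 word), to CACCC (its core, which lies inside it) and to TTTGCTC (the Mac1 word), or to the reverse complement of one of the first 2.
FRE1, chromosome XII, 568267 to 568366, plus strand: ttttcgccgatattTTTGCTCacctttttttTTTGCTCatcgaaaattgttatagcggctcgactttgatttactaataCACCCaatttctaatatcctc
FRE2, chromosome XI, 11627 to 11676, minus strand: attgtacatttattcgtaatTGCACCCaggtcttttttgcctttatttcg
FRE3, chromosome XV, 1055095 to 1055144, plus strand: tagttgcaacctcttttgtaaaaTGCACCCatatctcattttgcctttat
FRE4, chromosome XIV, 739501 to 739550, plus strand: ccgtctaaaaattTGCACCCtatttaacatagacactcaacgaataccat
FRE5, chromosome XV, 1061224 to 1061348, plus strand: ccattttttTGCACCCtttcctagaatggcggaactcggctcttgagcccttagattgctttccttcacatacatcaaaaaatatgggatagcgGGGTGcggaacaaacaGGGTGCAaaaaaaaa
FRE6, chromosome XII, 39602 to 39651, minus strand: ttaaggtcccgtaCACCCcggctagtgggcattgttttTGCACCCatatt
FRE8, chromosome XII, 241708 to 241757, minus strand: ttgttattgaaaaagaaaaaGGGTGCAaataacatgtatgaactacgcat

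TGCACCC was found, on either strand of the 500 bases before the start codon, in 6 of the 8 members (FRE2, FRE3, FRE4, FRE5, FRE6 and FRE8) and in 2.33% of 6000 windows of that length before annotated genes. CACCC was found in 7 of 8 members, all but FRE7, and in 33.5% of the 6000 windows. Among the members TTTGCTC was found in FRE1 only, with 3 matches, of which 2 lie in the stretch shown, and it was found in 8.62% of all windows. None of the 3 words was found in the window of FRE7. A match is a description of letters, not of binding, and nothing follows from a missing one.

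**Figure D1:**
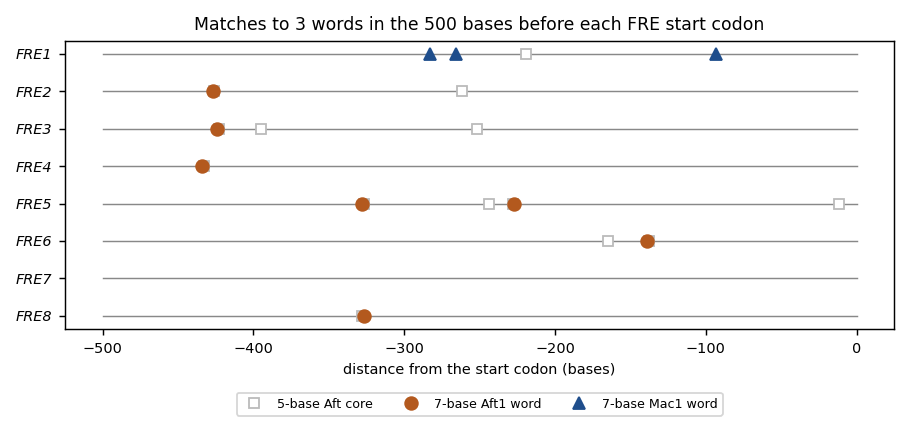
Each row is a FRE gene and the horizontal axis is the distance in bases from its start codon, over the 500 bases before it. Markers show matches to the 5-base Aft core, the 7-base Aft1 word and the 7-base Mac1 word on either strand; the Mac1 word appears in the FRE1 row alone, with 3 matches, and the FRE7 row is empty.

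Each member is annotated with a single coding exon in build R64, and no annotated gene overlaps any of them. FRE1 lies on chromosome XII at 568567 to 570627 (plus strand), FRE8 on XII at 239347 to 241407 (minus) and FRE6 on XII at 37333 to 39471 (minus). FRE3, at 1055545 to 1057680 (plus), and FRE5, at 1061564 to 1063648 (plus), flank the cell wall iron genes FIT2 and FIT3 and a small gene, YOR381W-A, on chromosome XV. FRE7 lies at the other end of XV at 40748 to 42610 (plus), FRE4 on XIV at 739951 to 742110 (plus) and FRE2 on XI at 9091 to 11226 (minus). FRE2, FRE3, FRE4, FRE5, FRE6 and FRE7 lie within 42223 bases of a chromosome end. The coding sequences of FRE2 and FRE3 were the most alike of the 28 pairs, with 77.0% of aligned bases identical, and no pair shared a run of 50 bases.

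Levels are given as normalized counts, which are gene counts that the authors had scaled by a size factor for each library. A log2 change is the difference of mean log2(normalized count + 1) between 2 groups, fitted with limma over all 15 libraries. A gene was called, and is said to have risen or fallen, at a Benjamini-Hochberg adjusted p under 0.05. The recovered depth was 5629666 to 7183175 reads per library, and all 8 members passed the filter of a mean of at least 10 normalized counts, as did 5567 of the 6600 identifiers. The deletions of BY4741 were seen in the reads: no library held a read of URA3 or MET17, and a single one held 1 read of LEU2. Reads of HIS3, of which this strain lacks only a part, averaged 382 to 488 normalized counts over the 5 groups. The a-type genes MFA1, MFA2, STE2 and BAR1 were expressed. Of the alpha-type genes, the pheromone genes MF(ALPHA)1 and MF(ALPHA)2 averaged at most 6.92 normalized counts in any group, and the receptor gene STE3 had 47.4 to 79.6 in each library. After group means were removed, the leading component of the genes outside the lists used here held 26.7% of the variance over 5501 genes, and La EC10 library 14 (10.8) and Yb EC10 library 8 (7.49) had the 2 highest scores on it. This is the end at which FRE1 was low within groups, the sign of a component is arbitrary, and control library 1 lay about as far out at the other end (-7.56). Values without the first pair therefore rest on a choice from 1 end, made after the values were seen; leaving out La EC10 library 14 and control library 1, the 2 libraries farthest from 0, was added beside it.

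Counted per kb of coding length, the order of the mean levels was FRE1, FRE6, FRE8, FRE3, FRE2, FRE4, FRE7 and FRE5 in each of the 5 groups. FRE1, the main reductase of the plasma membrane, averaged 538 ± 135 normalized counts per kb in La EC10 cells, 375 ± 35.5 in La EC50 cells, 353 ± 139 in Yb EC10 cells, 296 ± 75.7 in Yb EC50 cells and 486 ± 55.0 in control cells (SD, n = 3 each). FRE6, a reductase of the vacuole membrane, averaged 359 ± 30.9, 326 ± 4.76, 297 ± 40.5 and 269 ± 7.78 normalized counts per kb in those treated groups and 298 ± 16.7 in control cells. Per kb, FRE1 and FRE6 did not overlap in control or La cells, and they did at both Yb doses. FRE5, the lowest, averaged 14.1 ± 7.34, 7.87 ± 1.51, 5.10 ± 1.54 and 4.78 ± 2.17 normalized counts per kb in the same treated groups and 6.40 ± 2.43 in control cells, so the family spanned a wide range of levels. Of the other neighbours in this order, FRE2 and FRE4 overlapped at La EC10, FRE4 and FRE7 at Yb EC10, and FRE7 and FRE5 at La EC10; the remaining neighbours did not overlap in any group.

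**Figure D2:**
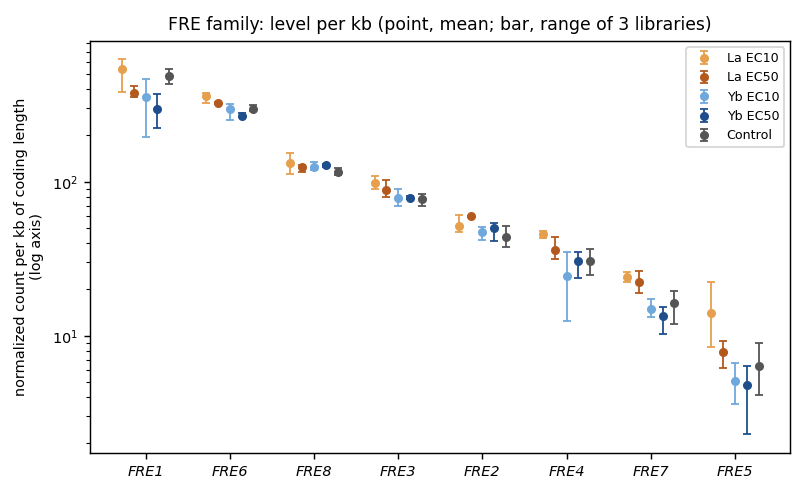
The vertical log axis gives normalized counts per kb of coding length for each FRE gene, with a point for the mean and a bar for the range of the 3 libraries of each group. FRE1 and FRE6 are at the top and FRE5, at a mean of 4.78 to 14.1 normalized counts per kb, is at the bottom in every group.

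FRE1 encodes the reductase that supplies iron and copper to the high-affinity transporters of the cell surface. FRE1 had 1282, 787 and 1255 normalized counts in La EC10 cells (libraries 13, 14 and 15) and 729, 856 and 731 in La EC50 cells (libraries 10, 11 and 12). It had 952, 403 and 825 in Yb EC10 cells (libraries 7, 8 and 9) and 769.5, 458 and 604 in Yb EC50 cells (libraries 4, 5 and 6), against 1112, 886 and 1010.5 in control cells (libraries 1, 2 and 3). All 3 libraries at Yb EC50 and all 3 at La EC50 lay below the control range, whereas those at Yb EC10 and La EC10 overlapped it. FRE1 fell at Yb EC50, with a ratio of means of 0.609 and a log2 change of -0.74 ± 0.26 (SE, adjusted p = 0.0347 in limma). The other log2 changes of FRE1 against control were not called: -0.55 ± 0.26 at Yb EC10 (adjusted p = 0.127 in limma), -0.37 ± 0.26 at La EC50 (0.317) and 0.12 ± 0.26 at La EC10 (0.802). Without Yb EC10 library 8, the lowest of all, the log2 change of FRE1 at Yb EC10 was -0.17 (adjusted p = 0.559 in limma). The call at Yb EC50 was lost with Yb EC50 library 5 left out (-0.55, adjusted p = 0.141 in limma), with library 6 left out (0.0693), without control library 1 (0.0988) or 3 (0.081), and with libraries scaled to equal totals (0.0917), in limma without its mean-variance trend (0.0533) and in DESeq2 (0.0543). With La EC10 library 14 and Yb EC10 library 8 left out, the log2 change at Yb EC50 was -0.74 with an adjusted p of 0.000925 in limma. Neither library is in the groups compared, so the change stayed the same and only the shared spread shrank (SE 0.14 against 0.26). Both held low FRE1 values and were chosen after these were seen, so this p adds no support. With La EC10 library 14 and control library 1 left out, the log2 change was -0.66 and not called (0.0741).

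FRE2 encodes the second ferric reductase of the plasma membrane. FRE2 had 102, 101 and 129.5 normalized counts in La EC10 cells and 127, 128 and 129 in La EC50 cells. It had 89.6, 103 and 109 in Yb EC10 cells and 115, 88.3 and 116 in Yb EC50 cells, against 91.3, 80.9 and 110.2 in control cells. The La EC50 libraries stood close together above every control library, and the other groups overlapped the control range. FRE2 rose at La EC50, averaging 128 ± 1.08 against 94.1 ± 14.9 normalized counts in control cells (SD, n = 3 each), and its log2 change was 0.45 ± 0.14 (SE, adjusted p = 0.0269 in limma). The variance of FRE2 within La EC50 was 0.024 times that of counting alone, so the small SD there is not a measure of precision. The call was lost under quantile normalization with all libraries (adjusted p = 0.177 in limma). On the deposited scaling it was also lost when control library 1 or 2 or any La EC50 library was left out, and without La EC10 library 14 and control library 1 (0.43, adjusted p = 0.0598 in limma). The log2 changes of FRE2 in the other 3 groups, 0.10 to 0.24, were not called.

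FRE3 and FRE4 encode reductases that release iron from siderophores. FRE3 had 199, 192 and 234 normalized counts in La EC10 cells and 171, 218 and 177 in La EC50 cells. It had 191, 148 and 161 in Yb EC10 cells and 172, 164 and 167 in Yb EC50 cells, against 168, 148 and 178 in control cells. Only the La EC10 libraries were all above the control range, with a log2 change of 0.34 ± 0.12 that narrowly missed the threshold (adjusted p = 0.0516 in limma). FRE4 had 103, 93.4 and 101 normalized counts in La EC10 cells and 70.8, 94.8 and 68.5 in La EC50 cells. It had 75.3, 26.8 and 55.7 in Yb EC10 cells and 75.8, 50.9 and 70.1 in Yb EC50 cells, against 78.8, 53.2 and 66.1 in control cells. The La EC10 libraries of FRE4 again stood above the control range, with a log2 change of 0.60 ± 0.28 that was not called (adjusted p = 0.141 in limma), and Yb EC10 library 8 had its lowest value. With La EC10 library 14 and Yb EC10 library 8 left out, both genes were called at La EC10, FRE3 with a log2 change of 0.39 (adjusted p = 0.0293 in limma) and FRE4 with 0.64 (0.0351). With La EC10 library 14 and control library 1 left out, neither was called there (0.41, adjusted p = 0.0534 in limma, for FRE3 and 0.77, 0.12, for FRE4). La EC10 library 14 held the lowest La EC10 value of both genes, so leaving it out raises their changes there.

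FRE5 encodes a putative ferric reductase whose transcription is known to respond to low iron. FRE5 held 24, 19 and 44 reads in La EC10 libraries and 13, 21 and 19 in those of La EC50. It held 11, 7 and 13 reads in Yb EC10 libraries and 14, 5 and 13 in those of Yb EC50, against 18, 12 and 7 in control libraries, so counting error alone is large. On the scale of normalized counts it averaged 29.5 ± 15.3 at La EC10 and 13.3 ± 5.07 in control cells (SD, n = 3 each), and the ranges overlapped. The log2 change of FRE5 at La EC10 was 1.03 ± 0.41 and was not called (adjusted p = 0.0885 in limma). It was called without La EC10 library 14 and Yb EC10 library 8 (1.33, adjusted p = 0.0325 in limma). It was also called without La EC10 library 14 and control library 1 (1.59, 0.024). Both pairs hold La EC10 library 14, the lowest of its group for FRE5 (17.6 normalized counts). Control library 1 held the highest control value (18.7). Leaving these out raises the change by the choice of libraries, so neither call adds support. In the other 3 groups, with all libraries, the log2 change of FRE5 was -0.43 to 0.32 and not called.

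FRE6 is known to reduce ferric iron and copper stored in the vacuole ahead of their export to the cytosol. FRE6 had 809, 692 and 804 normalized counts in La EC10 cells and 708, 694 and 688 in La EC50 cells. It had 686, 534 and 683 in Yb EC10 cells and 593, 572 and 560.5 in Yb EC50 cells, against 621, 613 and 679 in control cells. Every La library lay above the control range, every Yb EC50 library below it, and the Yb EC10 libraries overlapped it. FRE6 rose at La EC10, averaging 768 ± 66.1 against 638 ± 35.7 normalized counts in control cells (SD, n = 3 each), and its log2 change was 0.27 ± 0.09 (SE, adjusted p = 0.0461 in limma). This call lay at the threshold: it was kept in 4 of 15 fits that left out 1 library, and its adjusted p in limma, edgeR or DESeq2 ranged from 0.00113 to 0.164 over all alternatives. Not called were the log2 changes of 0.13 ± 0.09 at La EC50 (adjusted p = 0.308 in limma), -0.02 ± 0.09 at Yb EC10 (0.923) and -0.15 ± 0.09 at Yb EC50 (0.201).

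FRE7 is a putative reductase known as a target of Mac1 when copper is short. FRE7 had 44.1, 48.1 and 41.4 normalized counts in La EC10 cells and 48.9, 35.6 and 39.6 in La EC50 cells. It had 26.7, 32.2 and 24.6 in Yb EC10 cells and 28.4, 27.8 and 19.1 in Yb EC50 cells, against 36.3, 33.0 and 22.0 in control cells. The La EC10 libraries were all above the control range and the other groups overlapped it. None of its changes against control was called, with log2 changes of 0.56 ± 0.21 at La EC10 (adjusted p = 0.0738 in limma), 0.45 ± 0.21 at La EC50 (0.138), -0.10 ± 0.21 at Yb EC10 (0.748) and -0.26 ± 0.21 at Yb EC50 (0.349).

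FRE8 is related to the other members by sequence and its substrate is less well known. FRE8 had 267, 230.3 and 317 normalized counts in La EC10 cells and 266, 264 and 237 in La EC50 cells. It had 246, 251 and 278 in Yb EC10 cells and 270.1, 258 and 267 in Yb EC50 cells, against 227, 254 and 233 in control cells. The Yb EC50 libraries were above the control range, and the log2 changes, 0.10 to 0.18 over the 4 groups, were not called. Of the 8 members, FRE8 had the highest adjusted p in the limma F test over all groups (0.524).

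**Figure D3:**
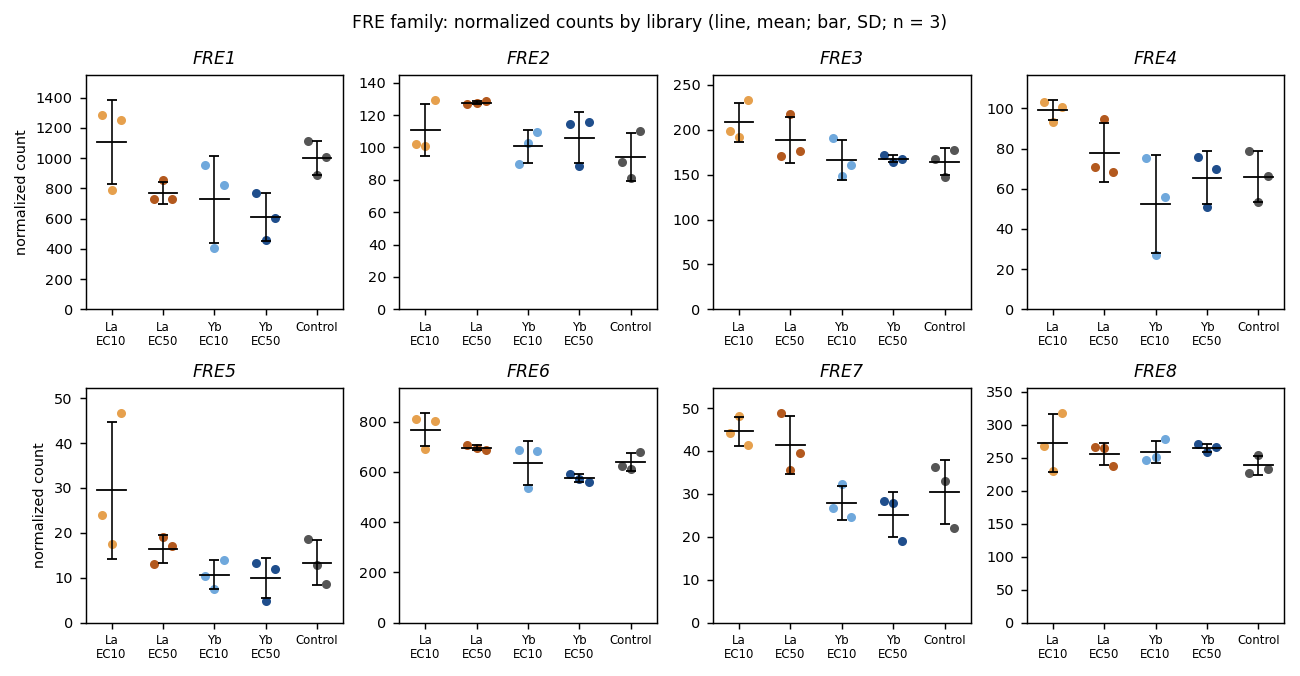
Each panel is a FRE gene, the vertical axis gives normalized counts from 0, points are libraries, lines the group means and bars the SD (n = 3). FRE6 and FRE7 were higher in all 6 La libraries than in all 3 Yb EC50 libraries, and FRE1 was lowest in Yb EC10 library 8 (403).

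Across the family, 1 of 8 members rose at La EC10 (FRE6), while 10.2% of all 5567 genes tested rose, and no member fell. In either direction 20.3% of all genes were called there. All 8 log2 changes of the members were above 0 there, also under equal totals, quantile normalization, edgeR and DESeq2, with a median of 0.30 against 0.01 over all genes tested. With La EC10 library 13 left out, FRE1 was at -0.00636. Some members vary together between libraries of a group (r = 0.90 for FRE1 and FRE4), so these are not 8 separate signs. Of the 8 members, 1 rose at La EC50 (FRE2), while 12.6% of all genes rose and 25.6% were called in either direction, and the median log2 change was 0.21 against 0.01. At Yb EC10, 0 of 8 were called by limma, edgeR or DESeq2, and 0 had an unadjusted p under 0.05 in limma, beside 29.3% of all genes called. At Yb EC50, 1 of 8 fell (FRE1), while 20.2% of all genes fell and 40.8% were called in either direction, and the median was -0.08 against -0.02. In either direction, the share of members called was below that of all genes in each of these 4 comparisons. An unadjusted p under 0.05 in limma was reached by 5 of 8 members at La EC10, 1 at La EC50 and 1 at Yb EC50. No share of all genes is given for that threshold, so these counts show nothing particular to the members. The shares above are of adjusted calls.

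Ranges of the treated group and control did not overlap for 4 of 8 members at La EC10, beside 34.5% of all genes, and for 3 of 8 at La EC50, beside 42.7%. At Yb EC10 it was 0 of 8, beside 40.9%, and at Yb EC50 it was 3 of 8, beside 52.1%. With La EC10 library 14 and Yb EC10 library 8 left out, 5 of 8 members rose at La EC10, beside 14.7% of all genes. They were FRE3, FRE4 and FRE5 as above, FRE6 with a log2 change of 0.34 (adjusted p = 0.00113 in limma) and FRE8 with 0.29 (0.0341). This count depends on which pair is left out: without La EC10 library 14 and control library 1, 2 of 8 rose at La EC10 (FRE5 and FRE6), beside 13.4% of all genes, and 0 of 8 were called at La EC50 and at Yb EC50. FRE3, FRE4, FRE5, FRE6 and FRE8 each had their lowest La EC10 value in library 14. Both pairs leave it out, so the changes of these genes rise there by that choice. Without La EC10 library 14 and Yb EC10 library 8, 2 of 8 fell at Yb EC50, beside 22.8% of all genes: FRE1, and FRE6 with -0.15 (adjusted p = 0.0428 in limma). Neither library is in the groups compared there, so only the shared spread changed and not the log2 changes. The limma F test over all 5 groups called 2 of 8 members, FRE6 (adjusted p = 0.0138) and FRE7 (0.0185), beside 43.1% of all genes called. In it 6 of 8 had an unadjusted p under 0.05, a threshold for which no share of all genes is given.

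**Figure D4:**
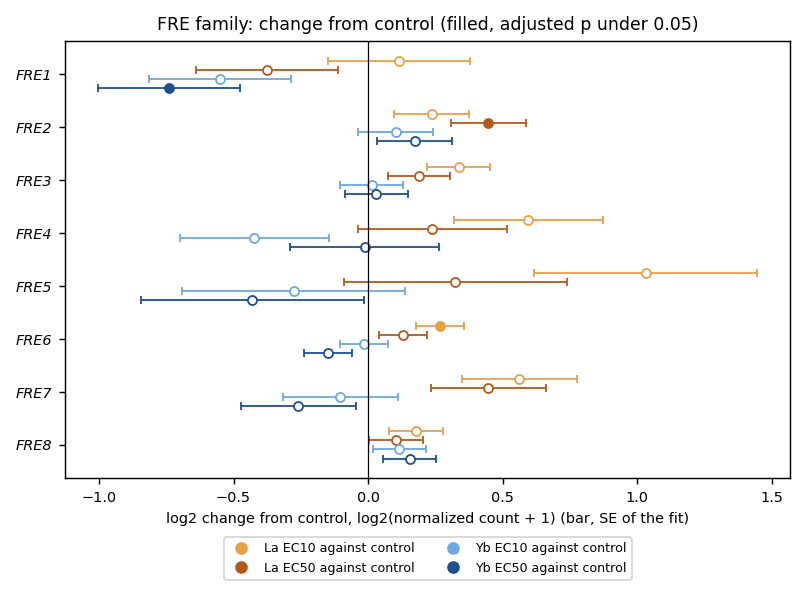
For each FRE gene the horizontal axis gives the log2 change from control of log2(normalized count + 1), with a bar for the SE of the fit and a filled point where the adjusted p was under 0.05. The filled points are FRE6 at La EC10 (0.27), FRE2 at La EC50 (0.45) and FRE1 at Yb EC50 (-0.74).

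The metals were compared at equal effect levels, at which their doses differ (50 against 6 µM and 160 against 8 µM). At EC10, FRE4 was higher in La cells, averaging 99.2 ± 5.17 against 52.6 ± 24.4 normalized counts in Yb cells (SD, n = 3 each), a log2 difference of 1.02 ± 0.28 (SE, adjusted p = 0.0397 in limma). It was the single member of 8 called higher, beside 1.71% of all genes called higher and 5.89% called in either direction. It was no longer called without Yb EC10 library 8 (0.61, adjusted p = 0.105 in limma), without La EC10 library 14 and Yb EC10 library 8 (0.65, 0.147), or without La EC10 library 14 and control library 1 (1.06, 0.0833). It was kept in 6 of 15 fits that left out 1 library and in 4 of 11 other alternatives, with adjusted p-values of 0.00634 to 0.163 in limma, edgeR or DESeq2. Log2 differences of 1.31 ± 0.41 for FRE5 (adjusted p = 0.0804 in limma), 0.67 ± 0.21 for FRE7 (0.0849), 0.28 ± 0.09 for FRE6 (0.0813) and 0.32 ± 0.12 for FRE3 (0.126) were not called. FRE1 was not called either (0.67 ± 0.26, adjusted p = 0.172 in limma), and without Yb EC10 library 8 it had 0.29 (0.497). All 8 log2 differences were above 0, with a median of 0.49 against 0.004 over all genes tested. Here too, signs of members that vary together are not separate. An unadjusted p under 0.05 in limma was reached by 6 of 8, FRE1 among them. No share of all genes is given for that threshold, and the 5.89% above is of adjusted calls. For FRE3, FRE4, FRE5, FRE6 and FRE7 every La EC10 library lay above every Yb EC10 library, 5 of 8 members beside 20.7% of all genes.

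At EC50, FRE6 and FRE7 were higher in La cells, 2 of 8 members, beside 10.8% of all genes called higher and 22% called in either direction. FRE6 averaged 697 ± 10.2 in La cells against 575 ± 16.6 normalized counts in Yb cells (SD, n = 3 each), a log2 difference of 0.28 ± 0.09 (SE, adjusted p = 0.0367 in limma). FRE7 averaged 41.4 ± 6.81 in La cells against 25.1 ± 5.22 normalized counts in Yb cells, a log2 difference of 0.71 ± 0.21 (adjusted p = 0.0271 in limma). These 2 genes and FRE2 (0.27 ± 0.14, adjusted p = 0.178 in limma, not called) did not overlap between the metals, 3 of 8 members beside 41.8% of all genes. The FRE6 call was lost with equal totals (adjusted p = 0.112 in limma) and when any of the 6 libraries compared was left out, and that of FRE7 without Yb EC50 library 6 (0.53, adjusted p = 0.124 in limma) or La EC50 library 10 (0.113) or 12 (0.0646).

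With all 15 libraries, no change between the doses of a metal was called for any member. Between EC50 and EC10 of La, 0 of 8 members were called by limma, edgeR or DESeq2, beside 1.78% of all genes, and the log2 changes ran from -0.71 for FRE5 to 0.21 for FRE2. None had an unadjusted p under 0.05 in limma, while edgeR and DESeq2 each gave 1 such member. Without La EC10 library 14 and Yb EC10 library 8, FRE1 was lower at La EC50 than at La EC10 (-0.72, adjusted p = 0.0227 in limma), 1 of 8 members beside 1.9% of all genes called lower. Without La EC10 library 14 and control library 1 it was also -0.72 and was not called (0.219). With all libraries it was -0.49 ± 0.26 (adjusted p = 0.412 in limma). La EC10 library 14 held the lowest FRE1 value of its group, so leaving it out widens this difference. Between EC50 and EC10 of Yb, 0 of 8 were called by the 3 tools, beside 1.1% of all genes, and 0 had an unadjusted p under 0.05, with log2 changes of -0.19 for FRE1 to 0.41 for FRE4. The difference between the dose steps of La and Yb was called for no member in limma, edgeR or DESeq2 (0 called, 0 with an unadjusted p under 0.05, beside 3.25% of all genes), and FRE4 had the difference farthest from 0, -0.77 ± 0.39 (adjusted p = 0.303 in limma).

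Libraries of the same group differed in FRE1 by far more than counting error. The variance of FRE1 within a group was 79.8 times that of counting alone in La EC10 cells and 7.18 times in La EC50 cells. It was 128 times in Yb EC10 cells, 49.1 times in Yb EC50 cells and 13.7 times in control cells. The same ratio reached 17.2 for FRE6 and 12.8 for FRE4, both in Yb EC10 cells, 8.09 for FRE5 and 7.63 for FRE8, both in La EC10 cells, and 4.98 for FRE3 in Yb EC10 cells. For FRE2 and FRE7 it was between 0.024 and 2.79. For the same relative spread this ratio grows with the count, so it does not rank the members by their spread: in control cells the SD was 24.5% of the mean for FRE7, at a ratio of 1.71, and 11.3% for FRE1, at a ratio of 13.7. As a log2 deviation from its group mean, FRE1 was lowest in Yb EC10 library 8 (-0.76), La EC10 library 14 (-0.46), Yb EC50 library 5 (-0.38) and control library 2 (-0.17), each the lowest library of its group.

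Over the 15 libraries, with the group means removed, FRE1 deviations had a Pearson r of 0.90 with those of FRE4, 0.86 with FRE6, 0.67 with FRE5, 0.65 with FRE3, 0.37 with FRE8, 0.26 with FRE2 and -0.33 with FRE7. These are descriptions over points that share library, depth and preparation, and r between FRE1 and the leading component of genes outside the lists was -0.79. The closest list genes, chosen after their values were seen, were the low-affinity iron transporter FET4 (r = 0.98), the copper transporter CTR1 (0.98) and the siderophore transporter SIT1 (0.98). CTR1 had 983, 591 and 915 normalized counts in La EC10 cells and 508, 671 and 549 in La EC50 cells. It had 601, 203 and 613 in Yb EC10 cells and 543, 263 and 408 in Yb EC50 cells, against 730.2, 531 and 729 in control cells. The lowest library of each group was the same as for FRE1. Of the other targets of Aft1 and Aft2, 10 of 20 had an r over 0.9 with FRE1, beside 69 of 5559 tested genes outside the family, 1.24%. Among the 4 other Mac1 targets it was 1 of 4, and among 10 regulators and 8 heme genes it was 0 of 10 and 0 of 8.

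**Figure D5:**
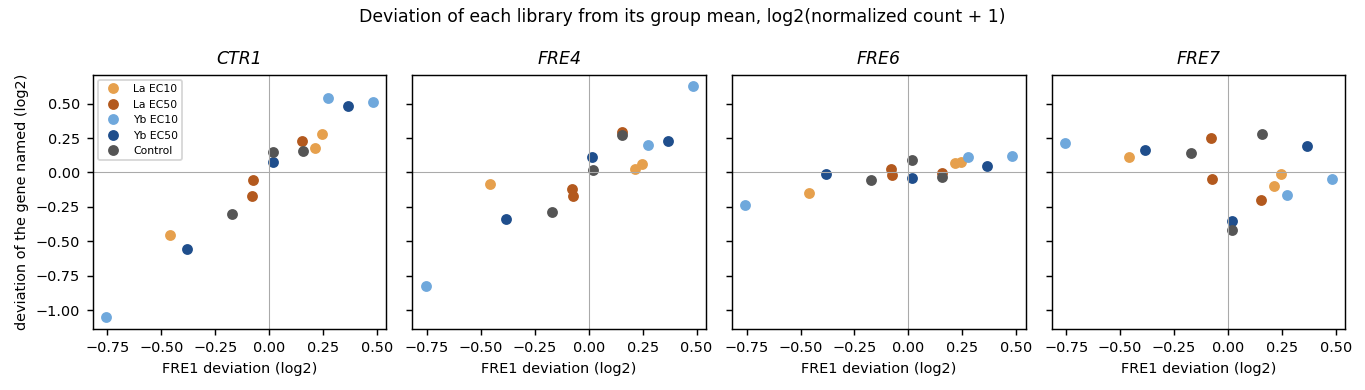
Each point is 1 of 15 libraries. The horizontal axis is the log2 deviation of FRE1 from its group mean and the vertical axis that of CTR1, FRE4, FRE6 or FRE7; CTR1, FRE4 and FRE6 lie along a rising line (r = 0.98, 0.90 and 0.86) and FRE7 does not (r = -0.33).

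The genes whose normalized counts were most like those of the 2 members called by the F test were taken by Pearson r of the log2 values over all 15 libraries, which share the 5 groups. For FRE6 they were PEX9 (r = 0.91), a peroxisomal import receptor, the siderophore transporter ARN1 (0.90) and the vacuolar zinc transporter ZRT3 (0.89). For FRE7 they were the histone H4 gene HHF2 (0.88), CIM1 (0.87) and SPC1 (0.86), a subunit of signal peptidase.

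Of 20 tested targets of Aft1 and Aft2 outside the family, 1 rose and 1 fell in La EC10 cells, beside 10.2% and 10.1% of all genes. In La EC50 cells 0 rose and 3 fell, beside 12.6% and 13%. With Yb, 0 rose and 2 fell at EC10, beside 15.2% and 14%, and 0 rose and 3 fell at EC50, beside 20.6% and 20.2%. FTR1, the iron permease, fell at La EC50 with a log2 change of -0.62, at Yb EC10 with -0.44 and at Yb EC50 with -0.77. Its partner oxidase FET3 fell at La EC50 (-0.59 ± 0.17, adjusted p = 0.0199 in limma) and at Yb EC50 (-0.71 ± 0.17, 0.00459), the group in which FRE1 fell. VHT1, a biotin transporter, fell in all 4 groups (-0.42, -0.53, -0.46 and -0.70 in the order La EC10, La EC50, Yb EC10 and Yb EC50). ARN1 rose at La EC10 and was not called in the other 3 groups (0.89 ± 0.22 at La EC10, adjusted p = 0.0109 in limma), with 1128, 688 and 1133 normalized counts at La EC10 against 575, 465 and 514 in control cells. The median log2 change of these 20 genes was 0.20 at La EC10 and -0.16 at Yb EC50, against medians over all genes of 0.01 and -0.02. Without La EC10 library 14 and Yb EC10 library 8, 10 of these 20 rose at La EC10, beside 14.7% of all genes, and 6 fell at Yb EC50, beside 22.8%. At Yb EC50 neither library is in the groups compared, so only the shared spread changed. Without La EC10 library 14 and control library 1, 8 of 20 rose at La EC10, beside 13.4%, and 3 fell at Yb EC50. Both pairs leave out La EC10 library 14, in which FRE1 was low for its group (-0.46). Of these 20 genes, 10 had an r over 0.9 with FRE1 within groups. Leaving library 14 out raises the La EC10 means of genes low in it, such as ARN1 (688 against 1128 and 1133). The counts at La EC10 without either pair therefore add no support. LSO1, also on this list, was below the filter and not tested.

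Of the 4 other Mac1 targets, none rose in any group, 0 fell at La EC10, 1 at La EC50, 1 at Yb EC10 and 2 at Yb EC50, beside 10.1%, 13%, 14% and 20.2% of all genes, and 4 genes are too few to set against these shares. REE1, whose product acts on enolase expression, fell at La EC50 (-0.32) and at both Yb doses (-0.32 at EC10 and -0.35 at EC50), and IRC7, a cysteine metabolism enzyme, fell at Yb EC50 (-0.21). CTR1 had log2 changes of 0.30, -0.20, -0.64 and -0.76 and CTR3, the other high-affinity copper transporter, of 0.27, -0.17, -0.13 and -0.24 in the order La EC10, La EC50, Yb EC10 and Yb EC50, none of them called. Of the low-affinity and internal transporters, SMF1, a manganese and divalent metal transporter, rose in all 4 groups (0.62, 0.71, 0.55 and 0.39 in the same order), and FET4, SMF2 and CTR2 were called in none.

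Of the copper buffering genes 2 were tested, and 1 of them fell at La EC10, beside 10.1% of all genes. Copper-zinc superoxide dismutase SOD1 fell at La EC10 (-0.23 ± 0.08, adjusted p = 0.0465 in limma) and its chaperone CCS1 was called in no group, while the metallothionein copies CUP1-1 and CUP1-2 had 0 to 2 reads per library, were not tested, and are near-identical copies whose reads the counting may have split or dropped. Of 3 genes tested on the list of iron storage and high-iron genes, 2 fell at Yb EC50, beside 20.2% of all genes. TYW1, an iron-sulfur enzyme (-0.39), and GRX4, a glutaredoxin that restrains Aft1 (-0.35), fell there and the vacuolar iron importer CCC1 was called in no group. Of 10 regulators of iron and copper genes, 1 rose and 1 fell at Yb EC50, beside 20.6% and 20.2% of all genes. They were the copper-responsive activator CUP2 (0.55) and the Aft1 inhibitor BOL2 (-0.47), and none was called in the other 3 groups. Of 8 heme synthesis genes, 1 fell at Yb EC10 (HEM3, -0.32), beside 14% of all genes. At Yb EC50 2 rose (HEM15 0.40 and HEM12 0.15) and 2 fell (HEM3 -0.28 and HEM13 -0.26), beside 20.6% and 20.2%. None was called at either La dose. AIM14, a relative of the FRE genes known as an NADPH oxidase, had log2 changes of 0.13 to 0.27 in the 4 groups and was called in none. Over these lists 28 calls were made against control, and none changed sign under 11 alternatives, while 10 were lost with equal totals: REE1 in its 3 groups, FET3 at La EC50, FTR1 at Yb EC10, SOD1 at La EC10, and IRC7, GRX4, HEM3 and HEM13 at Yb EC50.

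Summed over the 8 members, the family had a mean of 2640 ± 417 normalized counts in La EC10 cells, 2176 ± 118 in La EC50 cells, 1978 ± 413 in Yb EC10 cells and 1825 ± 207 in Yb EC50 cells, against 2247 ± 146 in control cells (SD, n = 3 each). FRE1 and FRE6 made up most of this sum, which was given no test. FRE1 made up 36.4% to 45.3% of the family total in La EC10 cells and 34.2% to 37.1% in La EC50 cells. It made up 26.8% to 41.8% in Yb EC10 cells and 28.2% to 37.8% in Yb EC50 cells, against 42.6% to 47.2% in control cells. Its share was below the control range in all 3 libraries at Yb EC10, Yb EC50 and La EC50, and in 1 of 3 at La EC10.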

How the data were processed

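The deposited table gave, for each of 15 libraries, a signal per gene: the deposited values are counts that were scaled, library by library, with a size factor of the authors (normalized counts). Mean columns per group were not used further. Strand-specific libraries were prepared, per the labels' protocols. The submitters' processing notes name TopHat2 2.1.1, HTSeq 0.6.1p1, DESeq2 1.14.1, FastQC 0.67 and the build R64. What each did, and the strand setting, is not given in the sources used here. The series description calls the samples retinal and each sample label says yeast cells, which was followed. Columns carried a group and a running number from 1 to 15, and libraries are named by these.

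The worth of 1 read was 0.901 to 1.22 normalized counts, and 100% of the deposited values were whole reads within a tolerance of 0.01; in 2 libraries 1 read was worth 0.997 and 1.003, so near 1 that the deposited values are nearly whole themselves. Replicate libraries differed beyond counting error (chi-square per degree of freedom 2.92 to 27.1), so none was treated as a duplicate. The 5567 genes whose mean reached 10 normalized counts were tested with limma 3.58.1 (R 4.3.3) on log2(normalized count + 1), with a mean-variance trend and 1 fit for the 15 libraries together. Changes are log2 differences on that scale, which understates low genes. P-values are 2-sided and Benjamini-Hochberg adjusted over these 5567 genes, with calls at an adjusted p under 0.05. An exact permutation test of 3 against 3 libraries cannot reach that threshold and was not used. On the recovered reads, edgeR 4.0.16 and DESeq2 1.42.0 were run as alternatives.

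Members and lists were chosen with earlier results of these data known. Named were all 8 members, every gene of lists of up to 5, and from longer lists up to 4 called genes with the largest change, and for members called by the F test the 3 genes with the highest r. Identifiers matched the RefSeq annotation of build R64 for 5917 of 6600, and coordinates are 1-based. CRS5, a metallothionein on the copper list, was not analysed here.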

Additional observations from a re-analysis of the deposited data

Results flagged for a closer look

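Some members differed between the metals in the direct test of La against Yb libraries. FRE4 was higher at La EC10 than at Yb EC10 by 1.02 on the log2 scale, and Yb EC10 library 8 held its lowest value of 15 libraries. FRE6 was higher at La EC50 than at Yb EC50 by 0.28, and FRE7 by 0.71. Apart from the component scores given above, groups of 3 libraries had no screen for single outlying samples. The pairs left out were chosen after the values were seen.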

How the results depend on the processing

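No paired analysis was possible because the columns carry a running number that does not tie them to replicate numbers; the replicate block was therefore not run. The F test has no fit to only the groups compared. Of 468 values of 18 single-gene results under alternatives, 386 kept their direction and side of the threshold, 57 lost the call, 24 gained it and 1 reversed: FRE1 at La EC10 against control was -0.00636 with La EC10 library 13 left out, at the low end of -0.00636 to 0.345.

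Members called at La EC10 against control (1) numbered 0 with all genes that had a read, without the mean-variance trend and in edgeR, 2 with equal totals and in DESeq2, and 5 without La EC10 library 14 and Yb EC10 library 8 (the first pair). Without La EC10 library 14 and control library 1 (the second pair) it was 2. With only the groups compared, FRE6 itself was not called at La EC10 (0.27, adjusted p = 0.0543 in limma). Both pairs were chosen after seeing the data. At La EC50 against control (1) it was 0 with quantile normalization and without the second pair, and 2 with only the groups compared. At Yb EC50 against control (1) it was 2 with quantile normalization and without the first pair, and 0 without the trend, in DESeq2 and without the second pair. With equal totals it was 1, but another gene: FRE1 was not called (-0.61, adjusted p = 0.0917 in limma) and FRE8 was called higher (0.29, 0.0396). For La EC50 against La EC10 (0) it was 1 without the first pair. For La EC10 against Yb EC10 (1) it was 3 with quantile normalization, 2 in DESeq2 and without the second pair, and 0 with all genes, equal totals, only the groups compared, no trend and without the first pair. FRE4 itself was not called there in edgeR (0.89, adjusted p = 0.0518). Without the second pair the 2 were FRE5 (1.61, adjusted p = 0.0485 in limma) and FRE6 (0.35, 0.0468), not FRE4. For La EC50 against Yb EC50 (2) it was 1 with equal totals and without the trend, and for the F test (2) it was 4 with quantile normalization, in DESeq2 and without either pair.

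Over all genes, La EC50 against La EC10 (99 called) gave 169 in DESeq2 and 185 without the first pair. Yb EC50 against Yb EC10 (61) gave 19 with all genes, 203 with equal totals, 142 with quantile normalization, 0 with only the groups compared, 5 without the trend, 176 in edgeR, 309 in DESeq2, 0 without the first pair and 210 without the second. La EC10 against Yb EC10 (328) gave 142 with only the groups compared. The difference between dose steps (181) gave 70 with all genes, 57 with only the groups compared, 38 without the trend, 273 in edgeR, 353 in DESeq2, 51 without the first pair and 57 without the second. The cause of these moves was not tested.

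With 1 library left out, members called against control ranged from 0 to 4 for La EC10, 0 to 1 for each of the 3 others, 0 to 2 between the metals at EC10 and at EC50, and 2 to 5 in the F test. Genes called ranged from 577 to 1511, 989 to 1553, 989 to 1818 and 1515 to 2393 in those 4 comparisons with control, 32 to 128 and 0 to 536 in the dose steps of La and Yb, 220 to 359 and 789 to 1314 between the metals at EC10 and EC50, 16 to 481 in the difference of dose steps and 1747 to 2658 in the F test.

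With equal totals, genes higher and lower at Yb EC50 were 1755 and 472, against 1148 and 1126 as deposited, and the median log2 change of all genes was 0.11 against -0.02. Relative to that median, the log2 change of FRE1 was -0.72 under both scalings, which follows from scaling whole libraries. Depth limits FRE5, with 5 to 44 reads per library, and FRE7, with 18 to 52.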
